A study of Homo sapiens with 8 samples.

Results

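T-box genes encode transcription factors that share a DNA-binding domain first described in the Brachyury protein. The accessible sites around 7 of them (TBX2, TBX3, TBX4, TBX5, TBX15, TBX18 and TBX20) are described here. The sites were taken by position, as those whose centre lies in 1 of 5 hg19 intervals that carry the genes' names: 114.5 to 116.0 Mb on chromosome 12 for TBX5 and TBX3, 59.2 to 59.8 Mb on chromosome 17 for TBX2 and TBX4, 119.1 to 119.9 Mb on chromosome 1 for TBX15, 85.0 to 86.0 Mb on chromosome 6 for TBX18, and 34.9 to 35.6 Mb on chromosome 7 for TBX20. They hold 33 of the 14191 sites in the series, 12 of 8154 opened sites and 21 of 6037 p63-closed sites.

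The study used ATAC-seq, in which a transposase inserts sequencing adapters into open DNA, on H9 human embryonic stem cells in 4 groups of 2 samples. The groups were an H9 line labelled TetO:Tp63+/-, given doxycycline (2 ug/ml) for 2 days and taken at day 0, H9 cells without p63 (p63-/-) after 7 days with 1 uM retinoic acid and 5 ng/ml BMP4, wild-type cells after the same 7 days, and wild-type cells at day 0. The samples of the doxycycline-treated line are titled p63GOF (gain of function). Retinoic acid and BMP4 are the morphogens that turn pluripotent cells into surface ectoderm, the simple epithelium from which the epidermis forms, and p63 is the transcription factor that epidermis and other stratified epithelia require. The data analysed were the authors' lists of sites, which their names describe as opened by morphogens ("opened sites", attached by the labels to wild-type cells at day 7 and day 0) and as opened by morphogens and closed by p63 ("p63-closed sites", attached to p63-/- and wild-type cells at day 7). Although both names say opened, the lists share 0 sites, so p63-closed sites are counted apart from opened sites throughout. No list was analysed for the doxycycline-treated line. The lists hold positions and no value per sample, so depth is unknown, no spread between cultures can be given, marker genes could not be checked, and each direction of change is the authors' own. Intervals of 95% below cover counting error only, and neighbouring sites are not independent.

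The T-box family patterns limbs, heart, skin and glands. TBX2 and TBX3 are close relatives that mainly repress their targets, and TBX3 is needed for mammary gland and limb formation. TBX5 acts in forelimb and heart, and its relative TBX4 in hindlimb and lung. TBX15 acts in the dermis and the limb skeleton, TBX18 in the sinus node of the heart and in the ureter, and TBX20 in heart muscle and valves. In the RefSeq gene table TBX5 and TBX3 are adjoining protein-coding genes, as are TBX2 and TBX4, so each of these pairs shares an interval. Beyond TBX3 the next protein-coding gene is MED13L, and before TBX5 it is RBM19. The table is on GRCh38, not on the build of the lists, so it gave only names and order, and whether a site lies in a gene, an exon, an intron or a promoter was not analysed here. A site in an interval is not thereby a site that acts on the gene named.

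Start-site sequence from RefSeq (GRCh38.p14) is shown for the interval with the most sites, through both TBX5 start sites in the table, and for the interval with the fewest, through TBX18. Each run is 300 bases, 250 before and 50 after the start, on the minus strand of chr12:114407963-114408262, chr12:114408393-114408692 and chr6:84764549-84764848. Capitals mark CATG, the core letters of the element that p63 binds.
TBX5 start 1: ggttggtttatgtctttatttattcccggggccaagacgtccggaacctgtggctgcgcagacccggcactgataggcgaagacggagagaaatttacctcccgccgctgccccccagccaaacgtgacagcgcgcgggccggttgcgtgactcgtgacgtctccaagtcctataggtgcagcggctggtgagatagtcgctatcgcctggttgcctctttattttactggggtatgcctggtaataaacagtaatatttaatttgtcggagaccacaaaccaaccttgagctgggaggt
TBX5 start 2: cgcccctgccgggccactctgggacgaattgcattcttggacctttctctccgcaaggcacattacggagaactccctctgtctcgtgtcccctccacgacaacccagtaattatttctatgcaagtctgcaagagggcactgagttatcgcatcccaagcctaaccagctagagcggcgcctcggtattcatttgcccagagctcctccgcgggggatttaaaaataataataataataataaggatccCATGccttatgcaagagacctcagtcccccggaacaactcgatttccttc
TBX18: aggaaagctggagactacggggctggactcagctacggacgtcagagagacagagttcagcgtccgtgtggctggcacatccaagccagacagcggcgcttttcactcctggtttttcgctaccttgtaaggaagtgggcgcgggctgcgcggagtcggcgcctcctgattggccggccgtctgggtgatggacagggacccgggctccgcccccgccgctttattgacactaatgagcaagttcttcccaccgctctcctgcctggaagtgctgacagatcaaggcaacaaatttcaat

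The letters CATG, which read the same on both strands, were found 1 time in the TBX5 start 2 window, from base 251 counted from its 5′ end, and in neither of the other windows shown. They occur in 54.9% of the 35116 promoter windows of this length. The table held windows for 4 of the 7 genes. TBX20 had 1 CATG and TBX4 had 0. The paired p63 element CATGNNNNNNCATG, the nuclear receptor element AGGTCA and the T-box element AGGTGT, each searched on both strands, were in none of the 5 windows of these 4 genes, against 0.373%, 13.8% and 11.4% of all windows. The paired element contains CATG, and AGGTCA and AGGTGT share their first 4 letters. These letters were not compared with the positions of the sites, since the builds differ, and the sites' own sequence was not used here.

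The intervals differed widely in how many sites they held. The TBX5-TBX3 interval held 18 sites, 5 opened and 13 p63-closed. The TBX2-TBX4 interval held 3 opened and 3 p63-closed sites, and the TBX15 interval 2 opened and 4 p63-closed. The TBX20 interval held 1 of each, and the TBX18 interval 1 opened site and 0 p63-closed. TBX5-TBX3 thus had a listed site per 83.3 kb, TBX2-TBX4 per 100 kb, TBX15 per 133 kb, TBX20 per 350 kb and TBX18 per 1000 kb, against 206 kb over the rest of the series.

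**Figure D1:**
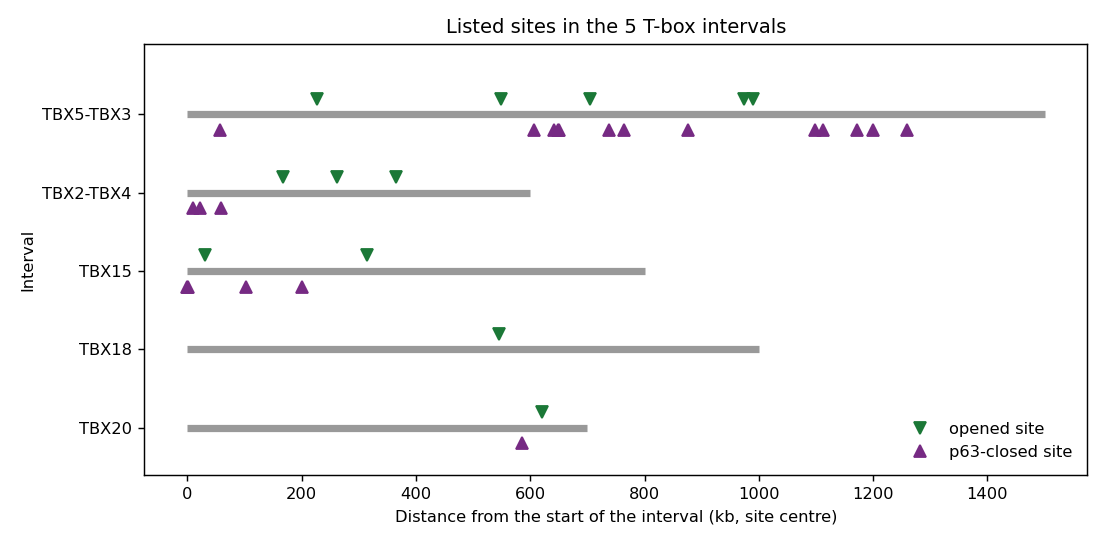
Positions of the 33 sites. Each grey bar is an interval drawn to length, the x axis gives the distance of a site's centre from the interval's start in kb, and triangles above and below the bar are opened and p63-closed sites. The TBX5-TBX3 bar carries 18 triangles and the TBX18 bar 1.

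Counts were set against the numbered catalogue of candidate regions from which both lists appear to be drawn, since the site names carry its numbers. Over the 5 intervals together there were 6.74 p63-closed sites per 1000 catalogue entries (95% interval 4.17 to 10.3), against 3.29 over the rest of the series. Opened sites stood at 3.85 per 1000 entries (1.99 to 6.72), against 4.46 over the rest. At the rate of the whole series the intervals' entries would hold 10.3 p63-closed sites, so the 21 listed were 2.04 times that number (1.26 to 3.12). The 12 opened sites were 0.864 times their expected 13.9 (0.446 to 1.51). The p63-closed excess lay mainly in TBX5-TBX3: without it the other 4 intervals held 8 p63-closed sites, 1.20 times the expected 6.65 (0.520 to 2.37).

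By interval, p63-closed sites stood at 11.8 per 1000 entries in TBX5-TBX3 (6.28 to 20.2), the only interval whose 95% interval lay wholly above the rest of the series. They stood at 7.74 in TBX2-TBX4 (1.60 to 22.6), 7.79 in TBX15 (2.12 to 20.0), 2.45 in TBX20 (0.0619 to 13.6) and 0 in TBX18 (0 to 5.23). In these 4 the 95% interval took in the value of the rest of the series. Differences among the 5 were not tested. For opened sites the densities ran from 1.42 in TBX18 to 7.74 in TBX2-TBX4, with 4.54 in TBX5-TBX3, and all 5 intervals took in the value of the rest.

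**Figure D2:**
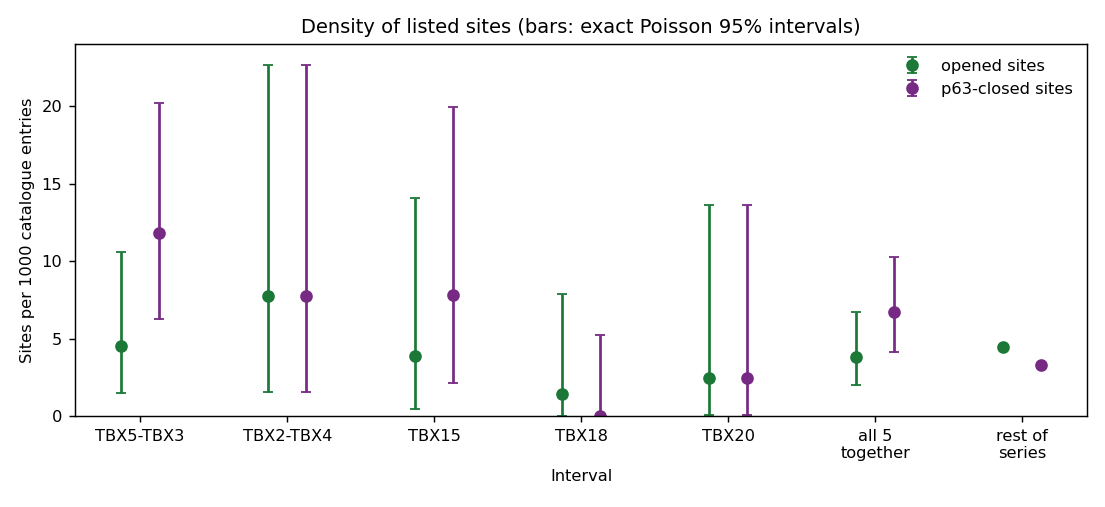
Density of opened and p63-closed sites, in sites per 1000 catalogue entries, in each interval, in all 5 together and over the rest of the series. Points are the values and bars exact Poisson 95% intervals. The p63-closed value of TBX5-TBX3 is 11.8, against 3.29 over the rest of the series.

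Windows of 1 Mb across the genome were tested for more sites than their catalogue entries predict (one-sided Poisson test, Benjamini-Hochberg adjustment over 2948 windows). The intervals touch 7 of these windows. For p63-closed sites 1 of the 7 was called, against a background of 2.37% of all windows. It was chromosome 12 from 115000001 to 116000000, in the TBX5-TBX3 interval, with 12 p63-closed sites where 2.39 were expected, a 5.02-fold excess (adjusted p = 0.00238). As many p63-closed sites were found in 10 of the 2948 windows, this one included. The adjoining window, from 114000001 to 115000000, held 1 p63-closed site where 2.45 were expected, so the excess did not extend to the first part of the interval. A negative binomial test, which takes the general clumping of sites into account, did not call the window (adjusted p = 1, unadjusted p = 0.00667). This test called 0 of the 2948 windows for p63-closed sites, so the missing call does not set this window apart. An unadjusted p under 0.05 in it was found for 4.07% of windows.

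The TBX15 and TBX2-TBX4 windows held 5 p63-closed sites each where 2.09 and 2.18 were expected, and neither was called (Poisson test, adjusted p = 0.666 for each). Of these sites 4 lay in the TBX15 interval and 3 in the TBX2-TBX4 interval, and the others lay outside. The TBX20 windows held 2 and 3, where 2.05 and 1.94 were expected. Most of these lay outside the TBX20 interval, which held 1 p63-closed site. The TBX18 window held 0 where 2.33 were expected. This is a common count, since 29.9% of all windows held no p63-closed site.

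For opened sites 0 of the 7 windows were called, against a background of 2.00% of all windows. The smallest adjusted p was 0.924 (Poisson test). An unadjusted p under 0.05 was found in 0 of the 7 by the Poisson test and in 0 by the negative binomial test. In the latter 4.78% of all windows had one, a share not given here for the Poisson test. The negative binomial test called 0 of the 7 for opened sites and 0 of all 2948 windows, so this 0 does not set them apart. The most opened sites were 5, in the TBX20 window from 35000001 to 36000000, where 2.62 were expected. Most of these 5 lay beyond the end of the TBX20 interval, which held 1 opened site. The TBX5-TBX3 window with 12 p63-closed sites held 4 opened sites, where 3.23 were expected.

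**Figure D3:**
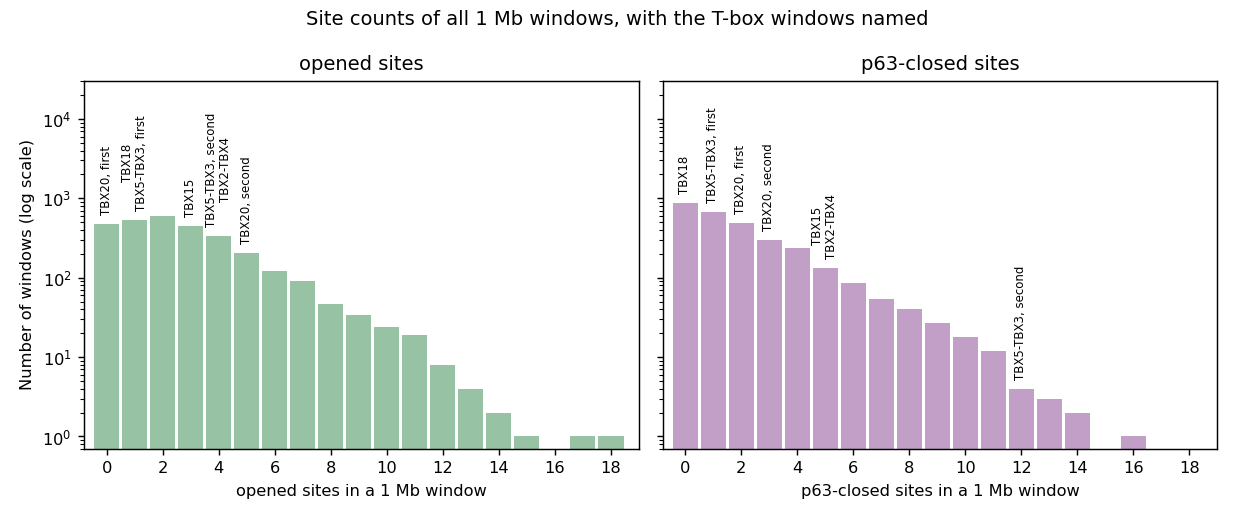
Number of 1 Mb windows (y axis, log scale) by the number of opened (left) and p63-closed (right) sites they hold (x axis), with the windows that touch the T-box intervals named above their bar. The second TBX5-TBX3 window lies at 12 p63-closed sites and 4 opened sites.

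The mix of the lists was read from the share of p63-closed sites. It was 63.6% over the 5 intervals (21 of 33, exact 95% interval 45.1 to 79.6%), against 42.5% over the rest of the series. In TBX5-TBX3 it was 72.2% (46.5 to 90.3%), in TBX15 66.7% (22.3 to 95.7%) and in TBX2-TBX4 it was 3 of 6 (11.8 to 88.2%). Without TBX5-TBX3 it was 53.3% (8 of 15, 26.6 to 78.7%), an interval that takes in the value of the rest. Among windows with at least 6 sites, 4 touch the intervals and 0 of them were called for an uneven split (exact binomial test, adjusted over 1072 windows, of which 0.933% were called). The smallest adjusted p was 0.142 (exact binomial test), in the chromosome 12 window with 12 p63-closed and 4 opened sites, and this was the 1 of the 4 with an unadjusted p under 0.05 (exact binomial test, p = 0.0106), which 21.1% of the 1072 windows also had.

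The sites of the TBX5-TBX3 interval are given in order. Of their 17 neighbouring pairs, 11 came from the same list (64.7%, 38.3 to 85.8%), against 61.5% over the rest of the series. The first site was p63-closed, at 114556670 to 114558460. The listed site before it lies outside the interval, 2915 kb away and 2132 catalogue numbers earlier. Only 24 of the 14168 distances between neighbouring listed sites were as long, this one included, so the interval begins at the end of a long stretch with no site in either list. Then came opened sites at 114725669 to 114726796 and at 115048880 to 115050253, which lay 323 kb apart with no listed site between them.

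Next stood a run of 4 p63-closed sites. It opened with a 3327 bp site at 115104791 to 115108117 and went on with sites at 115140608 to 115142442, 115147672 to 115148493 and 115149078 to 115150760. The last of these have consecutive catalogue numbers and are 584 bp apart. Each of the 4 had the other 3 within 50 kb of its centre. At least 3 others were that close for 4.17% of p63-closed sites over the rest of the series. The last 3 of the run are separated by only 5229 and 584 bp. Joining sites of a list within 10 kb makes them a single site and leaves 11 p63-closed sites in the interval, not 13.

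An opened site at 115204506 to 115206196 ended that run. It was followed by 3 p63-closed sites, a 3178 bp site at 115236203 to 115239380, a site at 115263082 to 115264674 and a site at 115376116 to 115377371. The opened site and the first of the 3 were the closest sites of different lists in the interval, with centres 32.4 kb apart. A pair of opened sites stood next, at 115473205 to 115474183 and 115488230 to 115490232, with centres 15.5 kb apart. The interval closed with 5 p63-closed sites, at 115596296 to 115598982, 115611728 to 115613374, 115671674 to 115672344, 115698741 to 115700303 and 115757202 to 115760566. The last of these was the widest of all 33, at 3365 bp. From the pair on, every listed site of the interval was p63-closed. Beyond its end the next listed site was an opened one, 125 kb past 116.0 Mb.

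In the TBX2-TBX4 interval, as drawn, the p63-closed sites came before the opened ones. The 3 p63-closed sites were at 59208807 to 59210442, 59221105 to 59224308 and 59256686 to 59259367, within 48.4 kb from first to last centre. Its 3 opened sites followed, at 59365819 to 59367852, 59460934 to 59463061 and 59563497 to 59565629, spaced by 95.2 and 103 kb. No p63-closed site lay among the opened ones, and the last 235 kb of the interval held no listed site. This order holds only between the interval's ends: an opened site stood 38.0 kb before its start, 47.7 kb from the first p63-closed site, and a p63-closed site stood 90.6 kb past its end. The nearest sites of different lists within the interval were 109 kb apart. All 3 p63-closed sites lay within 100 kb of the interval's start, so an interval shortened by that length would hold none.

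In the TBX15 interval the p63-closed sites had their centres in the first 201 kb. The first, at 119099177 to 119100896, has its centre 36.0 bp inside the interval's start and begins outside it. The second, at 119101279 to 119102547, is 382 bp from it and has the next catalogue number. An opened site at 119130453 to 119132929 followed, then p63-closed sites at 119201514 to 119203862 and 119300800 to 119301749, and an opened site at 119412237 to 119415034. The remaining 486 kb held no listed site. The closest sites of different lists were 29.8 kb apart. Just outside the start of the interval, 49.8 kb away, stood an opened site.

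The only site in the TBX18 interval was an opened one of 2312 bp, at 85544184 to 85546495. The nearest p63-closed site was 810 kb from it and the nearest other opened site 529 kb. Opened sites also stood just outside both ends of this interval, at 26.5 and 74.2 kb. The TBX20 interval held a p63-closed site at 35485456 to 35486604 and an opened site at 35520321 to 35522461, with centres 35.4 kb apart. Both centres lay in its last 114 kb, and the 586 kb before them held none. Counted from the listed site before the interval the empty stretch was 1054 kb, a distance reached by 2.08% of neighbouring pairs.

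Of neighbouring pairs of sites inside the intervals, 17 of 28 came from the same list, 60.7% (40.6 to 78.5%), against 61.5% over the rest of the series. A p63-closed site had another within 50 kb in 15 of 21 cases (71.4%), against 41.7% over the rest of the series. These were 10 of 13 in TBX5-TBX3, 3 of 3 in TBX2-TBX4, 2 of 4 in TBX15 and 0 of 1 in TBX20. An opened site had another within 50 kb in 2 of 12 cases (16.7%), against 40.3% over the rest, and both were the pair in TBX5-TBX3. Across lists, 5 of 21 p63-closed sites had an opened site within 50 kb (23.8%, against 28.9% over the rest), and 3 of 12 opened sites had a p63-closed site that close (25%, against 22.0%). No test was made of these shares, because sites that gather share their neighbours. The shares within 50 kb were not recounted with sites closer than 10 kb joined.

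Widths also varied. Median width was 2081 bp for the 12 opened sites (979 to 2798 bp), against 1597 bp over the whole list. The 5 in TBX5-TBX3 measured 979, 1128, 1374, 1691 and 2003 bp, and 2 of them were wider than the list's median. In the other intervals the 7 ran from 2034 to 2798 bp, and all 7 were wider than that median. The widest of the 5 and the narrowest of the 7 stood almost level, since 27.5% and 26.1% of the list were as wide. Whether the 5 and the 7 differ was not tested. The widest of the 12, in TBX15, was among the widest 7.01% of opened sites.

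The median of the 21 p63-closed widths was 1683 bp (671 to 3365 bp), against 1531 bp over the whole list, and 15 of the 21 were wider than the list's median. Those in TBX5-TBX3 held both extremes. The 671 bp site at 115671674 to 115672344 was narrower than most, since 98.3% of the list was at least as wide, while the 3365 and 3327 bp sites were reached by 2.00% and 2.09% of the list. The widest in TBX2-TBX4, at 59221105 to 59224308, measured 3204 bp, reached by 2.77%. In all, p63-closed sites covered 25.4 kb of the TBX5-TBX3 interval and opened sites 7.18 kb, and in TBX2-TBX4 they covered 7.52 and 6.29 kb.

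**Figure D4:**
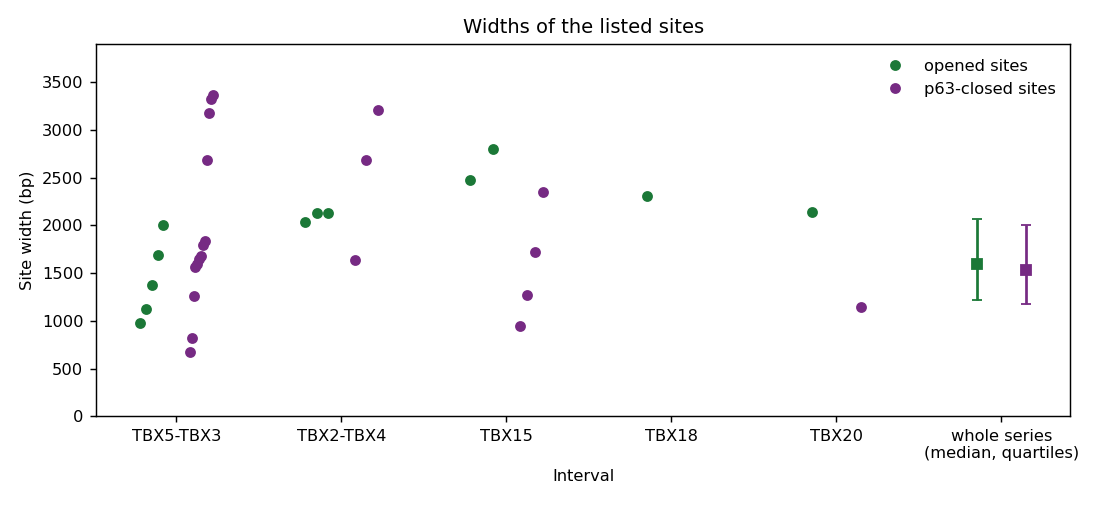
Width in bp of every site in each interval (points, opened and p63-closed apart), with the median and quartiles of each whole list at the right (squares and bars). The 5 opened sites of TBX5-TBX3 lie between 979 and 2003 bp, and the 7 of the other intervals between 2034 and 2798 bp.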

How the data were processed

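The authors deposited 2 lists of sites, each with 4 columns that hold a site's chromosome, start, end and numbered name, made from ATAC-seq of 8 samples. Per the submitters' processing notes, the tools were FastQC, SAMtools, Bowtie2, DESeq2 and MACS2 and the builds hg19 and GRCh37, which are the same assembly. For thresholds, versions and pooling: not given in the sources used here. No value per sample was analysed. Positions are 1-based, on hg19.

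Sites belonged to an interval by their centre. Catalogue entries were counted from the numbers in the site names, interpolated between listed sites, and estimated at 1495 bp per entry at 6 jumps in the numbering, none in the T-box intervals. Intervals are exact at 95% (Poisson for densities, Clopper-Pearson for shares). Window tests were run over the whole genome and called at an adjusted p under 0.05. The Poisson and exact binomial tests were tested on simulated data. For the negative binomial test only the fit of its spread was, not its calls. For the Poisson test the simulated counts were independent between and within windows, without the clumping of the listed sites. For the binomial test each simulated site's list was independent of its neighbours' lists. The simulations therefore cannot show how often these tests call falsely here. The members and comparisons were chosen with earlier results of these data known. All 7 genes of the rule are named. Every site is given by position. Alternatives changed the interval ends, site joining, window position and size, and the test. Software was pandas 2.3.3, numpy 2.4.6 and scipy 1.17.1 under Python 3.11.15, with matplotlib 3.10.9 for figures.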

Additional observations from a re-analysis of the deposited data

How the results depend on the processing

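No paired analysis was possible because the files analysed give positions without sample values, so replicates could not be left out in turn either. Leaving out the TBX5-TBX3 interval, an alternative chosen after seeing the data, left 7 opened and 8 p63-closed sites by construction, since fewer intervals were counted. The negative binomial test called 0 windows of the whole genome for opened sites and 0 for p63-closed sites, against 59 and 70 with the Poisson test, and so called 0 of the T-box windows; it allows a wider spread of counts. An expectation by base pairs called 107 of 2948 windows for p63-closed sites (cause not tested). Windows called for an uneven split numbered 10 of 1072. With windows shifted by 500 kb 3 of 1059 were called (the cause was not tested). With windows of 500 kb, which hold fewer sites, 1 of 564 was called. Of those touching the intervals, 0 of 4, 0 of 5 and 0 of 4 were called. Their smallest adjusted p was 0.142, 0.0555 and 0.491 (exact binomial test), each on chromosome 12. The 0.0555 belonged to 115500001 to 116500000, with 1 opened and 10 p63-closed sites, which runs past the interval's end. For p63-closed sites at TBX5-TBX3, the Poisson test by base pairs called the same 1 Mb window (adjusted p = 0.00055), while other windowings called other windows. Shifted windows called 115500001 to 116500000, which holds 10 sites and runs past the interval's end (adjusted p = 0.0169), but not 114500001 to 115500000, with 8 sites (0.120). The called window was 1 of 10 shifted windows that touch the intervals, against 60 called of 2951 over the genome. Windows of 500 kb called 115000001 to 115500000, with 7 sites (0.0272), but not 115500001 to 116000000, with 5 (0.215). Here 1 of the 12 windows that touch the intervals was called, against 58 of 5876 over the genome. With each interval shortened by 100 kb at both ends, TBX2-TBX4 held 0 p63-closed sites. TBX15 then held 2 p63-closed and 1 opened site, and TBX20 held 0 opened sites. Lengthened by 100 kb at both ends, TBX18 held 3 opened sites and TBX20 held 2 opened and 2 p63-closed. The counts of these small intervals thus depend on where their ends were drawn. In TBX5-TBX3 the p63-closed count was 12 when shortened and 13 when lengthened. The widths, the share of p63-closed sites and the share of same-list neighbours stayed within their counting interval or SD under all alternatives run, which with so few sites is a wide range.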
